A study of Mus musculus with 24 samples.

Results

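Telomerase lengthens chromosome ends, and the CST complex follows it by helping to fill in the complementary strand. The 8 genes described here encode proteins of these machines: Tert, Dkc1, Nop10, Nhp2, Gar1, Wrap53, Ctc1 and Ten1. They were taken as the array probes whose accession maps to these 8 symbols, out of 21368 genes that could be named on the array, and each had exactly 1 such probe. Their transcripts were measured in females, in the liver, the brain, the heart and a skeletal muscle. Of the 6 animals, 3 were homozygous for a Rap1 knockin (KI; RAP1 MUT in the labels) in the gene Terf2ip that replaces an isoleucine of RAP1 with arginine, so that the protein does not bind its telomeric partner TRF2, and the other 3 mice were wild-type (WT) littermates. The same 6 mice gave all 4 tissues, which makes 24 one-colour arrays in 8 groups of 3. The letters A, B and C stand for the KI animals and D, E and F for the WT animals. The age was 14 months for C and F and 15 months for the other 4. The KI allele was made by genome editing and had been backcrossed 4 times to C57BL6 (C57BL/6N in the study's methods), and the labels do not say which muscle or which brain region was taken.

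In telomerase, TERT is the reverse transcriptase that copies a template held in the telomerase RNA, which the gene Terc encodes. The mammalian RNA ends in an H/ACA domain bound by dyskerin (Dkc1), NOP10, NHP2 and GAR1, which also serve the small nucleolar and Cajal body RNAs that guide pseudouridylation, so these 4 proteins are needed in every cell whether or not it has telomerase. WRAP53 (TCAB1) brings the RNA to Cajal bodies and to telomeres, and CTC1, STN1 and TEN1 form CST, which limits telomerase and recruits DNA polymerase alpha to the new single strand. In rodents, unlike in most human somatic tissues, Tert transcripts are known from many adult organs.

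Levels are log2 signals minus the 75th percentile of the array, so that a level of 0 is the 75th percentile of all spots that are not controls, and a difference of 1 is a doubling. The 75th percentile itself ranged from 312.5 to 2519 intensity units over the 24 arrays, and 49.4% to 68.4% of probes were well above background on an array. The 8 genes were well above background in 191 of 192 measurements, the exception being Tert in the muscle of KI mouse C, and all 8 entered every test. Each tissue carried the markers of its own cells well above background on all its arrays. Other tissues' transcripts were seen on 3 arrays: the hepatocyte list averaged 5.03 in the brain of KI mouse C against at most -0.93 in WT brains, the skeletal muscle fibre list averaged 0.96 in the liver of the same mouse against at most -4.63 in WT livers, and the mammary list averaged -2.29 in the muscle of KI mouse B against at most -5.64 in WT muscles. All 3 are KI arrays, and a comparison with the highest WT value could not mark a WT array. The hepatocyte list averaged -3.39 in the muscle of WT mouse E, against -5.65 and -5.11 in WT mice D and F. Values without the 3 KI arrays are given beside the genotype differences in these tissues. Without them the counts called between tissues were those given next, except that 4 genes were called between brain and heart, Dkc1 among them (0.26). In whole tissue, fewer cells of a type and less RNA per cell cannot be told apart. Terf2ip itself was well above background on all 24 arrays and, by the brighter of its 2 probes, lay between 0.33 lower and 0.07 lower in KI tissues with no adjusted p under 0.515 (limma, each tissue); a changed codon need not alter the transcript level, so this does not check the genotype labels.

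The tissue of origin separated the levels of all 8 genes. In a limma fit of the 24 arrays, 8 of 8 genes differed among the 4 tissues at an adjusted p under 0.05, as did 97.6% of the 17296 genes tested. Between liver and brain 8 of 8 differed (84.4% of all genes), between liver and heart 8 of 8 (74%), between liver and muscle 7 of 8 (79.2%), between brain and heart 3 of 8 (79.3%), between brain and muscle 6 of 8 (82.1%), and between heart and muscle 6 of 8 (64.7%). Brain and heart were thus the pair in which the fewest of these genes were called in this fit. Over the 12 alternatives the called genes numbered 6 to 8 for liver and brain, 5 to 8 for liver and heart, 5 to 7 for liver and muscle, 3 to 7 for brain and heart, 2 to 6 for brain and muscle and 4 to 6 for heart and muscle. Under quantile normalization the fewest of the 8 genes were called between brain and muscle (4, against 6 between brain and heart). Calls over all genes moved as well. With the slide as a block 11167 of 17296 were called between brain and muscle, against 14207 here. In WT arrays alone 11737 of 17096 were called between liver and heart, against 12797 of 17296 here. Between brain and heart 12912 were called under median centring, against 13718 here. All livers lay on 1 slide and all muscles on another, so that slide and tissue cannot be told apart directly between liver and muscle. The fit with the slide as a block links those slides only through the brain and heart arrays. Liver and brain RNA was extracted with another kit than heart and muscle RNA, so that kit and tissue cannot be told apart between those pairs. Across the 48 combinations of a gene and a tissue pair 38 were called, and 22 of these kept their direction and call under every alternative tried and without each mouse in turn. The same share over all genes was not counted. None of the 8 genes differed in all 6 pairs, which 23.9% of all genes did.

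**Figure D1:**
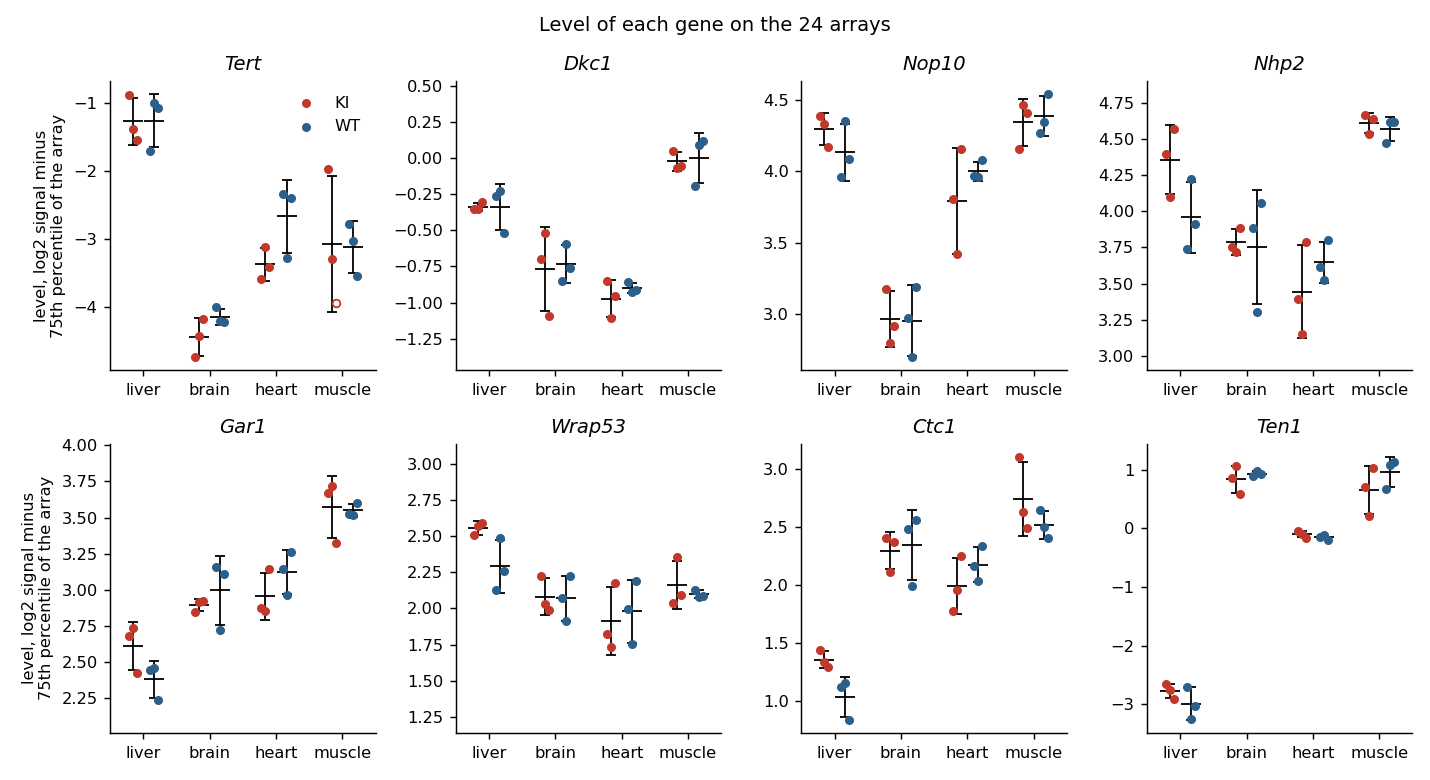
Level (log2 signal minus the 75th percentile of the array) of each of the 8 genes on the 24 arrays, by tissue, with KI in red, WT in blue, mean ± SD of 3 mice in black and an open circle for the 1 value not well above background. Each panel has its own axis, and levels are not comparable between panels. Ten1 lies lowest in liver (-2.89 on average), where Tert lies highest (-1.27), and KI and WT points of the same tissue overlap except for Wrap53 and Ctc1 in liver.

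Tert, the catalytic subunit, was high in liver and low in brain. The KI livers A, B and C stood at -0.88, -1.39 and -1.55, and the WT livers D, E and F at -1.71, -1.0 and -1.07. In brain the KI mice had -4.73, -4.42 and -4.18, and the WT mice had -4.01, -4.20 and -4.22. Every liver array lay above every brain, heart and muscle array, and every brain array lay below every heart and muscle array. These orders hold for levels relative to the 75th percentile, from the dim end of the array. That percentile was 1401 or more on all brain arrays, but no heart array exceeded 1130 and no muscle array 593.2. Unscaled Tert signals did not keep the order of brain below muscle. In WT mouse E, Tert stood at -4.20 in brain, where the percentile was 2519, and at -3.03 in muscle, where it was 441.6. Its unscaled signal was thus higher in brain than in muscle, as in every mouse but KI mouse A. Brain minus muscle was -1.32 to -0.97 under quantile normalization, median centring and normexp correction, each of which also scales every array. Liver averaged -1.27 ± 0.33 (SD, n = 6), heart -3.02 ± 0.53, muscle -3.09 ± 0.68 and brain -4.29 ± 0.25. Liver thus exceeded brain by 3.03 ± 0.27 (SE; 8.15-fold; adjusted p = 2.97e-09, limma), heart by 1.75 and muscle by 1.83 (1.10 with normexp correction). Brain minus muscle was -1.20 here and was not called with the slide as a block (-0.99, adjusted p = 0.11, limma). Heart and muscle, next to each other in this order, did not differ beyond their spread (0.07, 95% interval -0.49 to 0.63). The scatter between mice of one group was wide for Tert, with a pooled SD of 0.48 against a median of 0.31 over all genes, which put it at the 70.9th percentile. In muscle the 6 values ran from -3.93 to -1.98, both ends of that range being KI mice and the lowest being the value not well above background.

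The 250 bases before the Tert transcription start are shown because Tert had the second widest range over tissues of the 8 genes. They lie at chr13:73626661-73626910 on the plus strand (RefSeq, GRCm38.p6), and no annotated gene body overlaps them. Capitals mark GC boxes (GGGCGG on either strand), of which there are 2, beginning 51 and 14 bases before the start. The same letters occur in the 250 bases before the start of 32.7% of the 32851 promoter windows in the table, so the match is common. A window there has 300 bases (250 before and 50 after a start), of which only the first 250 were searched for motifs.
Tert: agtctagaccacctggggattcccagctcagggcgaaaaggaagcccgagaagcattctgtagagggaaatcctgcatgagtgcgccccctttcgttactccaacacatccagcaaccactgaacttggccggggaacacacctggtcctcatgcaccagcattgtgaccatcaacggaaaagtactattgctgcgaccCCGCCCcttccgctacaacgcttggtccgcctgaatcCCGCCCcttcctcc

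The 4 H/ACA genes had their highest mean in muscle in this fit, without a common lowest tissue. Muscle and liver did not differ beyond their spread for Nop10, and liver was the higher of the 2 for Dkc1 and Nop10 after median centring and for Nop10 with the slide as a block. Dkc1, which encodes the pseudouridine synthase, averaged -0.01 ± 0.12 (SD, n = 6) in muscle, -0.34 ± 0.10 in liver, -0.75 ± 0.20 in brain and -0.94 ± 0.09 in heart. All muscle arrays of Dkc1 lay above all arrays of the other tissues, and all liver arrays lay above those of brain and heart. Brain and heart were not distinguished for Dkc1 (0.18, 95% interval -0.02 to 0.39, adjusted p = 0.093, limma), although it was called after median centring, in the deposited scores and without the 3 arrays with other tissues' transcripts. Muscle exceeded heart by 0.92 ± 0.10 (SE; 1.90-fold; adjusted p = 1.61e-07, limma). The order of liver and muscle depended on the scaling, since liver was 0.33 below muscle here but 0.04 above it after median centring, and the call was lost without WT mouse F (-0.25).

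Nhp2, whose product binds the RNA directly in the H/ACA particle, followed the same order. It averaged 4.59 ± 0.07 in muscle, 4.16 ± 0.31 in liver, 3.77 ± 0.26 in brain and 3.54 ± 0.25 in heart. The 6 muscle values lay between 4.47 and 4.66, above every brain and heart value. Muscle exceeded heart by 1.04 ± 0.13 (SE; 2.06-fold; adjusted p = 2.05e-06, limma), and this was the 1 of its 5 called differences that kept its call under every alternative (0.69 in size under quantile normalization). Its liver and brain levels overlapped, and liver was 0.39 above brain here but 0.38 below it after quantile normalization, and the call was lost without mouse A (0.37) or mouse E (0.21). Across the 24 arrays, each gene centred on its own mean, Dkc1 and Nhp2 were the most alike of the 28 pairs of the 8 genes, with a root mean square difference of 0.26.

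The upstream windows of Dkc1 and Nhp2 are shown because these genes had the most similar patterns. The Dkc1 window lies at chrX:75095604-75095853 and the Nhp2 window at chr11:51619523-51619772, both on the plus strand (RefSeq, GRCm38.p6). Capitals mark TATA boxes (TATAAA, 12.4% of all windows), GC boxes (GGGCGG), ETS motifs (CCGGAAG, 6.91%) and CCAAT boxes (CCAAT, 33.8%) on either strand. In Dkc1 there is 1 TATA box on the opposite strand, 189 bases before the start. Nhp2 has 3 GC boxes, 3 CCAAT boxes, of which 2 overlap on opposite strands, and 1 ETS motif, which begins 23 bases before the start. The 2 windows thus have no motif in common among the 6 that were searched. The other searched motifs were the E-box (CACGTG, 6.02% of all windows) and the NRF1 motif (0.782%), which neither window has.
Dkc1: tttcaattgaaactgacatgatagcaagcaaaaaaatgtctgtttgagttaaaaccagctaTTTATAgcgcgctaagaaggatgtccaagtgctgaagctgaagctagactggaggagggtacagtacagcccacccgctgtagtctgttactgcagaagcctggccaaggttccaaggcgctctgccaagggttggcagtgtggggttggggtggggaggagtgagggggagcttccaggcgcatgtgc
Nhp2: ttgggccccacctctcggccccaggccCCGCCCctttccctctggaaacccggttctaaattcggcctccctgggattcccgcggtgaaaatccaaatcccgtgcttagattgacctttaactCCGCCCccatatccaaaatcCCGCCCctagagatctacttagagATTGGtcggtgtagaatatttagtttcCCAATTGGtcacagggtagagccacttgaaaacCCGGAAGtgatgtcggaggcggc

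Nop10, a small protein that rests against dyskerin in the particle, was lowest in brain. In brain KI mice A, B and C had 3.18, 2.80 and 2.92, and WT mice D, E and F had 2.98, 2.70 and 3.19. In muscle the same KI mice had 4.16, 4.47 and 4.41, and the WT mice had 4.27, 4.35 and 4.54. No brain array reached the level of any liver, heart or muscle array. Muscle exceeded brain by 1.40 ± 0.12 (SE; 2.65-fold; adjusted p = 3.85e-09, limma), liver exceeded it by 1.25 and heart by 0.94, and these 3 kept their call under every alternative. Under quantile normalization the size fell to 0.85 for muscle and 0.63 for liver. Muscle (4.37 ± 0.14) and liver (4.21 ± 0.17) did not differ beyond their spread (0.15, adjusted p = 0.27, limma), and that order turned after median centring and with the slide as a block. Heart averaged 3.90 ± 0.26, which was 0.32 below liver here and 0.10 above it after quantile normalization, and not called without any one of A, B, D and E (0.21 to 0.44 over all 6 omissions).

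Gar1, which joins the particle last in its assembly, was lowest in liver. From there (2.50 ± 0.18) the means went up through brain (2.95 ± 0.16) and heart (3.04 ± 0.17) to muscle (3.56 ± 0.14). All muscle arrays lay above all arrays of the other 3 tissues, and all heart arrays lay above all liver arrays. Muscle exceeded liver by 1.06 ± 0.10 (SE; 2.09-fold; adjusted p = 1.19e-08, limma), which became 0.70 under median centring. This and muscle over heart were the 2 of its 5 called differences that kept their call under every alternative. After median centring liver was not called below brain (-0.31, adjusted p = 0.062) or heart (-0.19, adjusted p = 0.278, limma), nor was it in the KI arrays alone. Brain and heart did not differ beyond their spread (-0.09, 95% interval -0.31 to 0.12), with a sign that turned under quantile normalization and median centring. Its upstream window has 1 ETS motif, and that of Nop10 has none of the 6 motifs. Gar1 therefore parted from the other 3 H/ACA genes in liver, where it had its lowest mean and they had their second highest, although Nhp2 was lower in liver than in brain after quantile normalization.

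**Figure D2:**
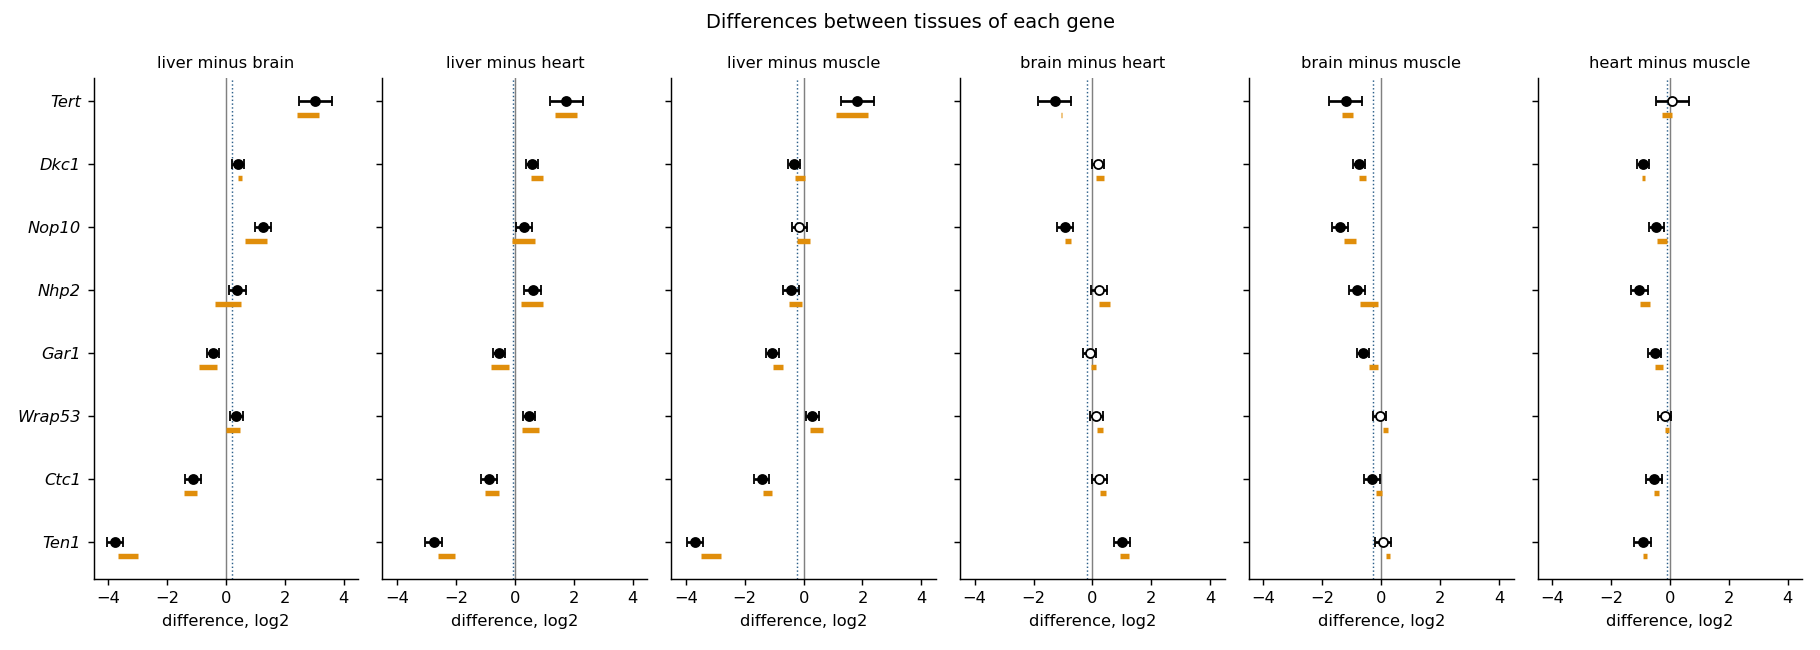
Differences between tissues (log2) of the 8 genes in the 6 tissue pairs, as points with 95% intervals from the limma fit of 24 arrays, filled where the adjusted p was under 0.05. Orange bars give the range of the same difference under quantile normalization, median centring and normexp background correction, and the dotted line is the median difference of all 17296 genes. Ten1 and Tert have the widest differences, the widest being against liver, while the Wrap53 points lie within 0.48 of 0 and those for brain minus muscle change sign under all 3 scalings.

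Wrap53, the trafficking subunit, had the flattest pattern. Its tissue means spanned 0.48 (1.39-fold), from 1.95 ± 0.21 in heart through 2.08 ± 0.13 in brain and 2.13 ± 0.11 in muscle to 2.42 ± 0.19 in liver. Of the 17296 genes tested, 2.2% had a span as small or smaller, and the median span was 2.37. Liver exceeded heart by 0.48 ± 0.10 (SE, adjusted p = 0.000341, limma), brain by 0.35 and muscle by 0.29, but each of these calls was lost when the 12 WT arrays were fitted alone, and under quantile normalization liver and brain were level (-0.00). The call against muscle was also lost without mouse A or mouse E (0.24 to 0.34 over all 6 omissions). Brain, heart and muscle did not differ from each other beyond their spread in this fit. Brain exceeded heart under quantile normalization (0.27, adjusted p = 0.014) and median centring (0.35, adjusted p = 0.0354), and it exceeded muscle under quantile normalization (0.24, adjusted p = 0.0261, limma). Wrap53 lies head to head with Trp53 on chromosome 11, and the 2 promoter windows share 208 bases on opposite strands. Trp53 was also highest in liver, by 1.72 over brain (adjusted p = 9.81e-06), 1.78 over heart (adjusted p = 8.35e-06) and 1.97 over muscle (adjusted p = 2.17e-06, limma in each case). Other scalings are not given for Trp53. Between KI and WT livers Trp53 was 0.81 lower in KI (adjusted p = 0.443), while Wrap53 was 0.27 higher (adjusted p = 0.466, limma in both cases). Of the 2 Wrap53 windows in the table, the one that overlaps the Trp53 window has 1 E-box and 2 CCAAT boxes, and the other has none of the 6 motifs. The overlapping window is not printed because part of it belongs to the Trp53 transcript.

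The CST subunits Ctc1 and Ten1 were both lowest in liver. Ctc1 encodes the large subunit, and in liver KI mice A, B and C had 1.44, 1.34 and 1.30, whereas WT mice D, E and F had 1.13, 1.16 and 0.84. Its means were 1.20 ± 0.21 in liver, 2.08 ± 0.20 in heart, 2.32 ± 0.22 in brain and 2.63 ± 0.25 in muscle, and no liver array reached any array of another tissue. Muscle exceeded liver by 1.43 ± 0.13 (SE; 2.69-fold; adjusted p = 3.82e-09, limma), brain exceeded it by 1.12 and heart by 0.88 (0.53 under median centring), and all 3 kept their call under every alternative. Heart and brain were not distinguished here (0.24, 95% interval -0.03 to 0.50). The difference was called under each of the other scalings, namely quantile normalization, median centring, normexp correction and the deposited scores. Its upstream window has 1 E-box and 2 overlapping GC boxes. Muscle over brain (0.31, adjusted p = 0.0308, limma) was lost or turned in 7 of 12 alternatives and without each of the mice A, B, D and E (-0.39 to -0.22 for brain minus muscle over all 6 omissions).

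Ten1, the smallest CST subunit, had the widest range of the 8 genes. The KI livers had levels of -2.66, -2.76 and -2.91, and the WT livers had -2.70, -3.25 and -3.03. The KI brains had 0.86, 1.06 and 0.59, and the WT brains had 0.90, 0.98 and 0.93. In heart the 6 values lay within -0.19 to -0.05, and in muscle they ran from 0.22 to 1.14. The 4 tissues fell into 3 levels without overlap, with liver lowest, heart next, and brain and muscle highest. Brain exceeded liver by 3.77 ± 0.13 (SE; 13.7-fold; adjusted p = 2.08e-15, limma) and muscle exceeded it by 3.70 (13.0-fold). This range lay at the 70.5th percentile of all genes, and the 5 called differences held under every alternative and without each mouse. Brain and muscle did not differ beyond their spread (0.08, 95% interval -0.20 to 0.35). The upstream window of Ten1 has 1 GC box, 23 bases before the start.

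The third CST subunit, Stn1, served as a comparison outside the 8 genes and had a different maximum. By the brighter of its 2 probes it averaged 0.23 ± 0.31 in liver, 0.85 ± 0.25 in brain, 1.13 ± 0.23 in muscle and 2.13 ± 0.31 in heart. Like Ctc1 and Ten1 it was lowest in liver (-1.89 against heart, adjusted p = 5.67e-10, limma), but it was higher in heart than in muscle by 0.99 (adjusted p = 9.00e-06), where Ctc1 was 0.54 lower and Ten1 0.93 lower. The telomerase RNA gene Terc followed Tert only in part. It averaged -5.18 ± 0.36 in brain, its lowest tissue, and -3.56 ± 0.80 in liver, which did not differ beyond its spread from heart (-3.29 ± 0.64) or muscle (-3.14 ± 0.57).

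**Figure D3:**
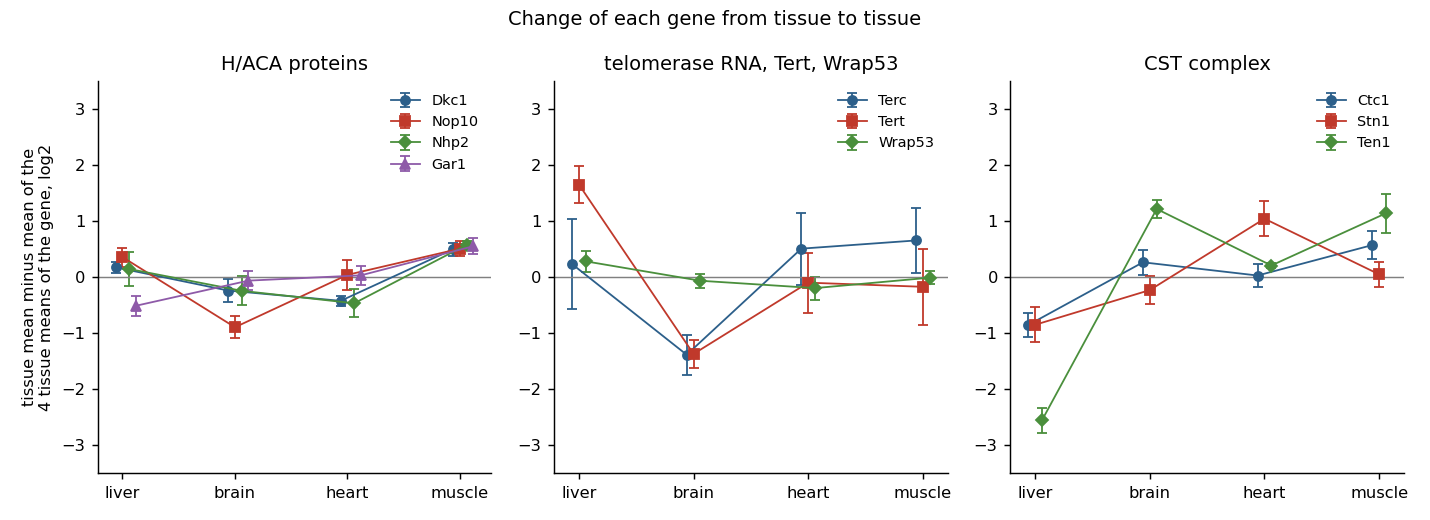
Mean level of 6 mice in each tissue minus the mean of the gene's 4 tissue means (log2), with the SD of 6 mice, for the H/ACA genes, for Terc, Tert and Wrap53, and for the CST genes including Stn1. The H/ACA genes meet in muscle, Tert has its peak in liver and Terc does not, and the 3 CST genes share a liver minimum but reach their maxima in muscle (Ctc1), heart (Stn1) and brain (Ten1), the brain and muscle levels of Ten1 differing by 0.08.

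4 of the 8 genes, Nhp2, Wrap53, Ctc1 and Ten1, lie on chromosome 11, which has 7.35% of the protein-coding genes in RefSeq (GRCm38.p6). Their patterns over tissues differed from each other as described, Nhp2 and Ctc1 having their maxima in muscle, Ten1 in brain and Wrap53 in liver. For each gene, the array was searched for genes with the most similar levels on the 24 arrays, each centred on its own mean, by the root mean square difference among 17174 genes. The nearest were Farsb (0.10) and Snrpb (0.13) for Dkc1, Stoml2 (0.11) and Washc3 (0.13) for Nop10, and Mcts1 (0.15) and Dis3l2 (0.18) for Nhp2. Gar1 was nearest to Ppig (0.10), and Wrap53 to Bola2 (0.12) and Pop4 (0.13). Ctc1 was nearest to Nudcd3 (0.16) and Gm14308 (0.16), and Ten1 to Araf (0.22) and Klc2 (0.30). Tert was nearest to Ctsl (0.41) and Slc46a3 (0.42). These differences include the scatter of Tert within groups, which was the widest of the 8 genes (pooled SD 0.48). Tert and Ten1 were the least alike pair of the 8 genes (2.62), and Gar1 and Ctc1 followed Dkc1 and Nhp2 as the second closest (0.27).

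The comparison of KI with WT mice asked whether RAP1 that cannot bind TRF2 goes with a change in these transcripts. It was made in each tissue with 3 mice per genotype, where an exact permutation test could not go below p = 0.1. An adjusted p of 0.05 was passed by 0 of 8 genes in each of the 4 tissues (limma), and by 0% of all genes. At an unadjusted p under 0.05 there was 1 of the 8 genes, Tert in heart, while 11.7% of all genes did so in the livers, 0.79% in the brains, 1.63% in the hearts and 0.851% in the muscles. For the average over a mouse's 4 tissues 0 of 8 passed, either adjusted or unadjusted (3.46% of all genes unadjusted). The F-test of whether the KI difference itself varied between tissues also gave 0 of 8 (adjusted p = 1.00 for each gene, limma), and 0 of 8 at an unadjusted p under 0.05 (1.86% of all genes).

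In liver 6 of 8 genes had a higher KI mean, with a median difference of 0.22 beside 0.04 over all genes, and 55.9% of all genes had a higher KI mean there. Ctc1 was 0.32 ± 0.13 (SE) higher in KI liver (adjusted p = 0.427, limma) and Wrap53 was 0.27 ± 0.13 higher (adjusted p = 0.466). For Wrap53 the KI livers A, B and C had 2.50, 2.57 and 2.59, and the WT livers D, E and F had 2.13, 2.48 and 2.26. For these 2 of 8 genes all 3 KI livers lay above all 3 WT livers, as they did for 12.2% of all genes, and in either direction 19.7% of all genes had no overlap in liver. Nhp2 was 0.40 ± 0.19 higher (adjusted p = 0.449) with overlapping groups, its KI values being 4.40, 4.10 and 4.57 and its WT values 3.74, 4.22 and 3.91. Without KI mouse C, whose liver carried muscle transcripts, the differences were 0.35 for Ctc1, 0.25 for Wrap53, 0.29 for Nhp2 and 0.13 for Tert. Tert and Dkc1 differed by -0.01 and -0.00 in liver, with signs that turned under median centring and normexp correction.

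In heart 7 of 8 genes had a lower KI mean, with a median difference of -0.18 beside -0.05 over all genes, and 38.2% of all genes had a higher KI mean there. For Tert the KI hearts A, B and C had -3.59, -3.11 and -3.42, and the WT hearts D, E and F had -2.33, -3.28 and -2.39. WT mice D and F were high and WT mouse E lay among the KI mice, so the groups overlapped. The difference was -0.70 ± 0.28 (SE; 95% interval -1.37 to -0.04; unadjusted p = 0.0412, adjusted p = 0.971, limma). The higher KI means in heart numbered 2 instead of 1 when KI mouse B was left out and also when WT mouse F was. For Tert, on the slide that held mice A, B, D and E it was -0.54, and between mice C and F on another slide it was -1.02. Terc was lower in KI heart by a similar amount (-0.74, adjusted p = 0.971, limma), with -4.16, -3.22 and -3.58 for A, B and C against -2.67, -3.63 and -2.45 for D, E and F, so that D and F were again high and E low. The cardiomyocyte list, which has atrial genes in it, averaged 4.20 to 8.39 in KI and 4.10 to 7.22 in WT hearts, and the leukocyte list -2.11 to -0.93 in KI and -2.24 to -1.69 in WT hearts. Their part in the Tert difference was not tested. 0 of 8 genes had KI and WT hearts without overlap (5.03% of all genes).

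In brain and in muscle 0 of 8 differences had an unadjusted p under 0.05. In brain Tert was 0.30 ± 0.17 (SE) lower in KI mice (adjusted p = 1.00, limma), with -0.73 between mice A and D on one slide and -0.09 between the other 4 mice on another. Without mouse C, whose brain carried hepatocyte transcripts, the Tert difference was -0.44. The other 7 genes lay between -0.10 and 0.04 in brain. In muscle Ten1 was 0.32 ± 0.25 (SE) lower and Ctc1 0.22 ± 0.20 higher in KI mice (both adjusted p = 1.00, limma), and the other 6 genes lay between -0.04 and 0.06. Without mouse B, whose muscle carried mammary transcripts, Ten1 was at -0.10 and Ctc1 at 0.28. Groups without overlap numbered 0 of 8 in brain (2.86% of all genes) and 0 of 8 in muscle (3.54%). The 95% intervals were widest for Tert in muscle (-1.13 to 1.22), so a doubling in either direction lies inside them there, while for Dkc1 in liver they ran from -0.30 to 0.30. In that average over tissues Tert was 0.24 ± 0.14 lower in KI mice (-0.24 without mouse B and -0.13 without mouse C) and the other 7 genes lay between -0.04 and 0.08. Groups in that mean overlapped for 8 of 8 genes, whereas 9.01% of all genes had no overlap.

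**Figure D4:**
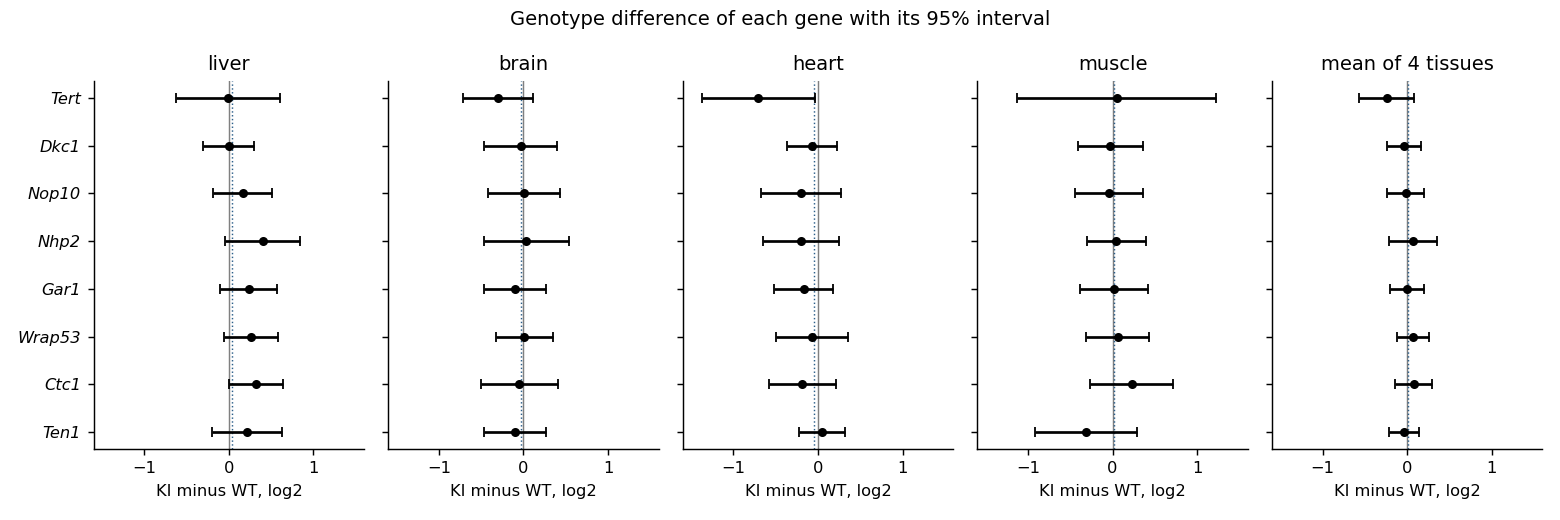
Difference between KI and WT mice (log2) of the 8 genes in each tissue and in the average over a mouse's 4 tissues, with 95% intervals from limma; dotted lines mark the median difference of all genes tested. The interval of Tert in heart (-1.37 to -0.04) is the one that does not reach 0, and its adjusted p was 0.971.

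The wider telomerase and CST pathway was given by 40 genes: Terc with the factors that mature and assemble H/ACA particles, regulators of telomerase, the chaperonin that folds WRAP53, CST partners, shelterin and end-processing enzymes. None passed in any comparison of genotypes: 0 of the 37 tested for liver, 0 of 38 for brain, 0 of 37 for heart, 0 of 36 for muscle and 0 of 38 for the tissue mean of a mouse. At an unadjusted p under 0.05 there were 3 for liver (Stn1, Pinx1 and Nvl, the latter pair lower in KI), beside 11.7% of all genes there, and 0 elsewhere. The genes of smallest unadjusted p were Stn1 in liver (0.51 higher in KI, adjusted p = 0.381), Nvl in brain (0.42 lower, adjusted p = 1.00), Terc in heart, Nufip1 in muscle (0.26 higher, adjusted p = 1.00) and Terf2ip in the mean of the tissues (0.17 lower, adjusted p = 0.982, limma in each case). By the brighter of its 2 probes, the mouse means of Terf2ip were 0.76, 0.69 and 0.54 in KI mice A, B and C. WT mice D, E and F had 0.85, 0.85 and 0.81, so that these groups did not overlap (9.01% of all genes). For Stn1 the KI livers had 0.60, 0.44 and 0.40 and the WT livers -0.11, 0.20 and -0.16, so that the groups did not overlap. In liver the KI values lay above all WT values for 5 of the 37 (12.2% of all genes) and below them for 4, so that 9 had no overlap (19.7% of all genes). Between tissues 37 of 38 pathway genes differed (97.6% of all genes). The 8 subunits of the chaperonin that folds WRAP53 were all higher in liver than in brain, with a median difference of 0.59 beside 0.19 for all genes. Of all genes called in that pair, 54.2% were higher in liver. The other pairs were mixed: Tcp1 was lower in liver than in heart (-0.14), and Tcp1 (-0.60), Cct5 (-0.48) and Cct4 (-0.04) were lower in liver than in muscle. Other scalings are not given for these subunits.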

How the data were processed

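Total RNA of 4 tissues of 6 mice was labelled with Cy3 and hybridised to Agilent one-colour arrays of 62976 spots (24 arrays, Feature Extraction 12.0.3.1). The deposited scanner files hold the processed, spot and local background intensity of each spot, background-corrected by the authors' scanner software. The authors' deposited value table holds a score for each feature, which was checked to equal the z-score of the log processed signal of the array to within 0.005, and it was used as an alternative only.

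Here log2 processed signals minus the 75th percentile of the 59305 spots that were not controls were used, after 121 to 347 outlier spots per array were left out. Spots of a probe were averaged, probes were named through RefSeq accessions (GRCm38.p6; 99.0% of 26732 probes with an mRNA accession matched), and the brightest probe stood for a gene. Genes entered a fit if at least 1 of its groups had the probe well above background throughout. Fits used limma 3.58.1 in R 4.3.3 (lmFit, eBayes, two-sided) with Benjamini-Hochberg adjustment over all genes tested. KI was compared with WT in each tissue on 6 arrays, in the mean of 4 tissues per mouse, and, for tissues and the test of a genotype difference that varies with tissue, in 1 fit of 24 arrays in 8 groups. Mouse numbers in the labels tie the tissues of a mouse together. With mouse as a block the consensus correlation was -0.00135. Alternatives were quantile normalization, median centring, normexp correction (offset 50), the deposited scores, the mean of all probes, all array features, no filter, slide or mouse as a block, WT or KI arrays alone, the 24-array fit for genotype, leaving out arrays with transcripts of another tissue, and leaving out each mouse. No reported direction or call of the 8 genes changed with the mean of all probes, all array features, no filter or mouse as a block. Each of the 8 genes has 1 probe, so the mean of all probes could not move its values. Fits were tested on simulated data. The number of arrays limits the precision. The p-values of genotype within a tissue or in the mean of tissues measure the spread between these mice. Those of the fit of 24 arrays measure the spread of arrays within the 8 groups, pooled over tissues, and each mouse enters that fit with 4 arrays.

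The 8 genes, the 40 pathway genes, the marker lists and the motifs were chosen with earlier results of these data known. Named genes were the 8 members, Terf2ip, Terc, Stn1 and Trp53, the pathway gene of smallest p where none passed, and the 2 nearest genes of each member, of which 1 for Gar1 is not reported here. Promoter windows came from a RefSeq table of 32851 windows.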

Additional observations from a re-analysis of the deposited data

How the results depend on the processing

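The count of 0 of 8 genes called between genotypes was the same under every alternative, in each tissue, in the average over tissues and in the test across tissues. With mouse as a replicate block the counts between tissues were also the same (8 of 8 for liver minus brain, 8 for liver minus heart, 7 for liver minus muscle, 3 for brain minus heart, 6 for brain minus muscle and 6 for heart minus muscle), and no call changed. Counts moved by over 1.5 times in 3 of the 6 tissue pairs, and by less in the others. For brain minus heart 6 genes were called under quantile normalization, 7 under median centring and 6 with the deposited scores. For liver minus heart 5 were called in WT arrays alone, and for brain minus muscle 2 with slide as a block. The cause was not tested, except that WT arrays alone are 12 of 24. Leaving out each mouse, the called genes numbered 7 to 8, 7 to 8, 6 to 7, 3 to 4, 5 to 6 and 6 to 6 in the same 6 pairs, and the genes with a higher KI mean in heart 1 to 2.

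Scaling moved the median difference of all genes: brain minus muscle had -0.27 here, 0.05 under quantile normalization, -0.03 under median centring and -0.52 with normexp correction. Of all genes called, the share higher in the first tissue moved from 47.4% to 59.9% (liver minus heart) and from 44.5% to 56.6% (liver minus muscle) under median centring, and for heart minus muscle from 45.4% to 56.2% under quantile normalization and 34.8% with normexp correction.

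The differences that changed sign were at most 0.39 in size in the reported fit, and the cause was not tested. Under quantile normalization Dkc1 in liver (KI minus WT) became 0.0152, Nhp2 -0.38 and Wrap53 -0.0042 (liver minus brain), Nop10 -0.10 (liver minus heart), Gar1 0.12 (brain minus heart), and Wrap53 0.24 and Ctc1 0.0309 (brain minus muscle). Under median centring Tert and Dkc1 in liver (KI minus WT) became 0.0856 and 0.0924, Dkc1 0.0417 and Nop10 0.22 (liver minus muscle), Gar1 0.13 (brain minus heart) and Wrap53 0.18 (brain minus muscle). With normexp correction Tert and Dkc1 in liver (KI minus WT) became 0.0420 and 0.0825, Wrap53 0.0692 (brain minus muscle) and Tert -0.26 (heart minus muscle). With slide as a block Nop10 became 0.0066 (liver minus muscle) and Wrap53 0.27 (brain minus muscle) and 0.0517 (heart minus muscle). For Wrap53 in brain minus muscle the deposited scores gave 0.0217 and the fit without the 3 arrays with other tissues' transcripts 0.0160. Ten1 was -0.0329 in brain minus muscle in WT arrays alone, and Tert was -0.30 in heart minus muscle in KI arrays alone. Leaving out each mouse gave -0.23 to 0.13 for Tert and -0.0930 to 0.0518 for Dkc1 in liver (KI minus WT), -0.12 to 0.0071 for Wrap53 and -0.0865 to 0.23 for Ten1 in brain minus muscle, and -0.13 to 0.40 for Tert in heart minus muscle. The 3 mice per genotype and 1 probe per gene limit which differences could be called, most of all for Tert, which had the widest scatter within groups of the 8 genes.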

Other observations

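Within the groups, the arrays high in Tert were mostly those high in Terc, which encodes the RNA that TERT copies, a relation looked at after the heart values had been seen. In 6 of 8 groups of 3 mice the array with the highest Tert level also had the highest Terc level, and in 6 of 8 the array with the lowest Tert level had the lowest Terc level. Among 17173 other genes, 3.15% shared the highest array with Tert in at least 6 groups, and 0.396% (68 genes) shared both the highest and the lowest in at least 6 groups each. In liver, KI mouse A had the highest levels of the KI group in both genes (-0.88 for Tert and -2.34 for Terc) and KI mouse C the lowest (-1.55 and -4.46, the latter not well above background). In muscle, KI mouse A was again highest in both (-1.98 and -2.32), and WT mouse D was highest in its group in both (-2.78 and -2.49). The exceptions were the highest array in WT brain (D at -4.01 for Tert, F at -4.78 for Terc) and in WT heart (D at -2.33 for Tert, F at -2.45 for Terc), and the lowest array in WT brain (F for Tert, E for Terc) and in KI brain (A for Tert, B for Terc). The counts include the heart groups in which the relation was first seen. Of the other 7 genes, Ctc1 came nearest, with the same highest array in 4 groups and the same lowest in 5, while Ten1 shared each in 1 group. Both probes read from the dim end of the array, while the shares above cover genes of all levels. The array highest in Terc had the lowest 75th percentile, which is subtracted from every level, in each group but KI heart. For Tert this held in both liver groups, both muscle groups and KI brain, but not in WT brain or either heart group. In KI muscle the 75th percentile was 312.5 for A, 573.8 for B and 492.5 for C. Depth of signal and RNA quality were not tested as a part of this order.

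In muscle the list of proliferating cells averaged -0.11 in KI mouse B and -1.25 in WT mouse D against at most -3.83 in the other 4 mice. Tert in these 2 muscles was -3.30 and -2.78, within the range of the other 4 (-3.93 to -1.98).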
